A study of Rattus norvegicus with 10 samples.

Results

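miR-320 was 1 of the 237 rat microRNAs (miRNAs, small RNAs that pair with messenger RNAs and lower their translation or stability) on a multi-species array with 1107 probes, and it was read by 1 probe printed as 3 spots on each of 10 arrays. It was selected by its probe name, rno-miR-320, after earlier results had shown it among the miRNAs that read higher in the operated leg. Its shunt against control values are therefore given as a description, without a test. The RNAs came from collateral vessels, the small arteries that bypass a closed main artery, of 5 male Spraque-Dawley rats. The shunt RNAs (n = 5) came from the leg in which the femoral artery had been tied off and a shunt between artery and vein placed, an operation that raises fluid shear stress in the collaterals. The control RNAs (n = 5) came from the sham-operated opposite leg of the same rats, so that both groups shared animal, strain and sex, and no untouched rat was included. The sources used here give neither the rats' age nor the time after surgery. The vessel tissue held several cell types, and fewer cells of a type could not be told apart from less miRNA per cell.

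miR-320 is known for an unusual way of being made. In the mouse its short hairpin forms at the very start of the transcript, carries a cap, skips the nuclear enzyme Drosha that cuts most miRNA precursors, and is cut by Dicer alone. The mature miRNA comes mainly from 1 arm of the hairpin. In blood vessels it has been linked to restraint of growth: in heart microvascular endothelial cells of diabetic rats it was reported to lower the growth factor Igf1. Apart from growth, it was reported in the mouse heart to lower a small heat shock protein that protects against ischaemia. In the RefSeq annotation of the rat assembly GRCr8 its gene, Mir320a, lies on chromosome 15. The protein-coding gene next to it is Polr3d, which encodes a subunit of RNA polymerase III, and the nearest one on the other side is Phyhip. The scanner files name no genome build.

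Of 4 vessel wall miRNAs on the arrays 3 were detected. miR-143, a smooth muscle miRNA, and miR-126, an endothelial one, exceeded background in all 10 shunt channels and all 10 control channels, and miR-145, the partner of miR-143, in 9 shunt and 8 control channels. miR-126*, the other arm of the miR-126 hairpin, exceeded it in 0 channels of either group. The red cell miRNAs miR-451 and miR-144 exceeded it in 0 of the 20 channels. Each RNA was labelled once with each of 2 dyes, AF665 and AF546, and hybridised on 2 arrays, so each group had 10 channels. Of the 10 arrays, 4 held shunt RNA only, 4 held control RNA only and 2 held 1 RNA of each group. Between 30 and 127 rat miRNAs were above background in a shunt channel, and between 36 and 86 in a control channel.

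The miR-320 spots were brighter in most shunt readings before any normalization. All 30 shunt spots lay more than 2 SD above their local background, against 17 of the 30 control spots. A reading counted as above background when at least 2 of its 3 spots did so, which held for 10 of 10 shunt readings and 6 of 10 control readings. A gain of at least 4 channels in shunt RNAs was seen for 32 of the 93 rat miRNAs kept for the comparison, miR-320 among them. Control 2 was not above background in either dye, and control 3 and control 5 were above it only in AF665. Net intensity, the mean foreground minus the median local background of a spot in scanner units, ran from 14 to 399 with a median of 135.5 over the shunt spots, and from 9 to 215 with a median of 40 over the control spots. Local background was of the same size, 35.3 to 68 behind the shunt readings and 37 to 79 behind the control readings.

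The raw readings varied widely within each leg. Shunt 2 was the brightest, with mean net intensities of 373.3 in AF665 and 374.3 in AF546. Shunt 5 held the dimmest shunt reading, 20.3 in AF665, while its AF546 reading was 124.3. Control 4 was the brightest control, at 149.7 and 206, and exceeded both readings of shunt 1 (100.7 and 79). Control 2 was the dimmest RNA, at 10 in AF665 and 30 in AF546. Averaged over the 10 readings of a group, raw net intensity was 171.6 in shunt and 67.7 in control RNAs, a ratio of 2.54 that still held every difference in labelling and scanning between arrays.

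**Figure D1:**
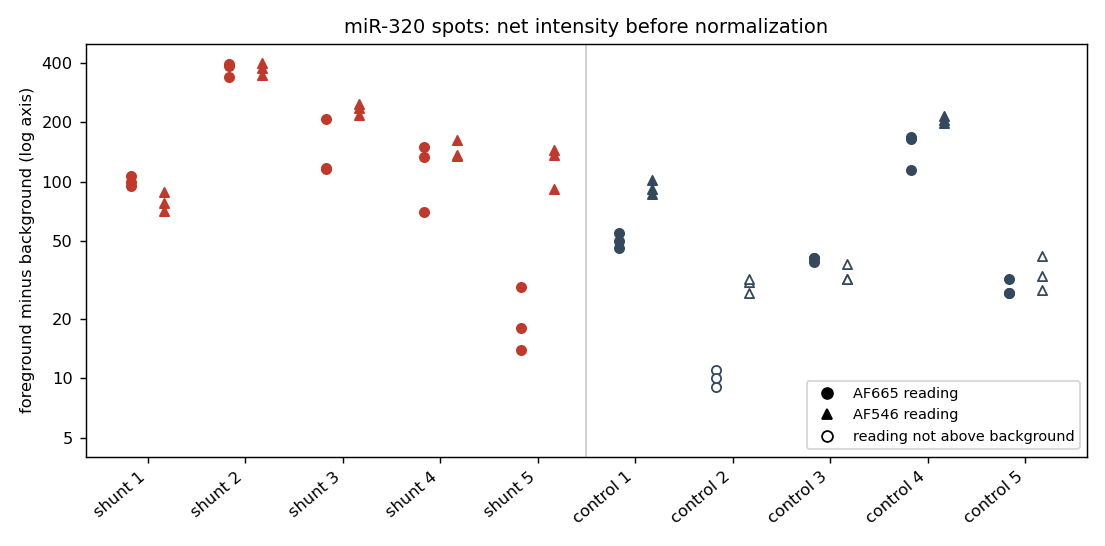
Net intensity of the 3 miR-320 spots (foreground minus local background in scanner units, log axis) for the 5 shunt RNAs and then the 5 control RNAs, with circles for the AF665 and triangles for the AF546 reading. Open symbols mark readings not above background, which occurred in control 2, control 3 and control 5 only, while control 4 lies among the bright shunt RNAs.

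Background correction and normalization put the values on the log2 intensity scale and moved some RNAs in order: control 4 fell below shunt 4, and control 3 took the lowest place from control 2. The miR-320 level was 7.16, 7.64, 7.59, 7.60 and 7.29 in shunt 1 to 5, and 6.86, 6.52, 6.28, 7.48 and 6.69 in control 1 to 5. The groups overlapped through control 4, which lay above shunt 1 and shunt 5, while the other 4 controls lay below every shunt RNA. Groups that did not overlap, with shunt higher, made up 5.38% of the 93 kept miRNAs, and miR-320 was not one of them. The kept miRNAs were those above background in at least 0.5 of the channels of 1 group. Many passed through the shunt channels only, such as miR-21 (8 shunt and 0 control channels) and miR-200b (6 and 0). miR-338 (4 and 5) alone passed through the control channels only. The filter thus leaned towards miRNAs detected in shunt RNAs. Counts, shares and medians of miRNAs higher or lower among the 93 therefore partly rest on this filter.

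The mean level was 7.45 ± 0.22 in shunt RNAs and 6.76 ± 0.45 in control RNAs (SD, n = 5 each). The difference of 0.69 log2 had a standard error of 0.20 in limma's fit across the 93 miRNAs. It corresponds to a 1.61-fold higher intensity, and was the largest of the 93 fitted differences, ahead of let-7d at 0.60 (SE 0.22) and miR-191 at 0.60 (SE 0.14). Across these miRNAs 67 read higher and 26 lower in shunt RNAs, with a median of 0.12, and relative to that median miR-320 was higher by 0.57. With an adjusted p threshold of 0.05 the fit called 1.08% of the miRNAs as higher in shunt RNAs and 0% as lower, 19.4% having an unadjusted p below 0.05 in either direction. Since miR-320 was chosen for this difference, nothing is read from that share.

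The spread among the controls exceeded that of most miRNAs. The control SD of miR-320 (0.45) ranked 15 of 93, against a median of 0.22 over the kept miRNAs, and its shunt SD (0.22) ranked 18, against a median of 0.14. Ordered by level, the top 3 RNAs were shunt 2, shunt 4 and shunt 3, which lay within 0.05 of each other. The step of 0.11 from shunt 3 to control 4 was smaller than the spread between the readings of 1 RNA (SD 0.12), that from shunt 5 to shunt 1 (0.13) was about equal to it, and those from control 4 to shunt 5 (0.19) and from shunt 1 to control 1 (0.30) were larger. The remaining steps, from control 1 to control 5 (0.16), control 2 (0.18) and control 3 (0.24), also exceeded it, but several of these readings were not above background.

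Within animals the shunt leg had the higher miR-320 level in 5 of 5 rats, as it had for 14% of the kept miRNAs, while 3.23% read lower there in 5 of 5 rats. The difference was 1.31 in animal 30 and 1.13 in animal 28, whose control legs had the lowest levels of all, and 0.60 in animal 32 and 0.30 in animal 27. In animal 31 it was 0.12, about the SD between the readings of 1 RNA (0.12). The SD of the 5 differences was 0.51. With median centring in place of the loess correction the sign changed in animal 27 (-0.10) and animal 31 (-0.10), so that 3 of 5 animals read higher, and without normalization between arrays animal 31 read -0.14.

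**Figure D2:**
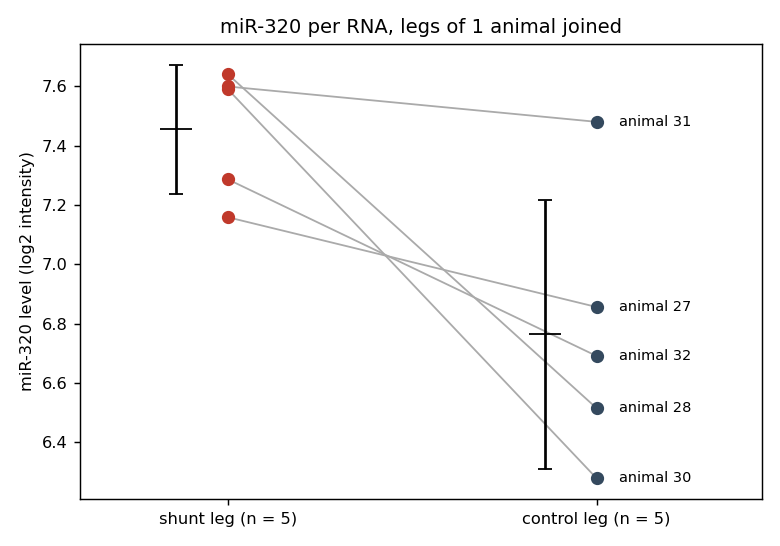
miR-320 level (log2 intensity) in the shunt leg and the control leg, with a grey line joining the legs of 1 animal and black bars for the group mean ± SD (n = 5 each). Animals 28 and 30 have the steepest lines, and the control leg of animal 31 (7.48) lies within the range of the shunt legs.

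The authors' deposited value table, which holds log2 values centred on 0 for each spot and normalized in a way that is not stated, gave a similar picture with wider scatter. Averaged over its 3 spots, miR-320 was 0.016, 1.46, 0.65, 0.32 and -0.39 in shunt 1 to 5, and -0.36, -0.90, -0.75, 0.67 and -0.71 in control 1 to 5. The group means were 0.41 ± 0.70 for shunt and -0.41 ± 0.64 for control RNAs (SD, n = 5 each), a difference of 0.82. Control 4 was again high, above shunt 1, shunt 3, shunt 4 and shunt 5, and control 1 also lay above shunt 5.

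Per animal, the authors' deposited table gives a signed fold and a p-value from a test that is not stated. miR-320 was higher in the shunt leg by 5.14-fold in animal 28 and by 2.65-fold in animal 30 (authors' folds). The authors' deposited folds for animal 27 (1.29) and animal 32 (1.25) were also above 1. For animal 31 the authors' deposited table has the shunt leg lower, at 0.785 of the control leg. The same rats, 28 and 30, thus carried the larger differences in both sets of values, and the small difference of animal 31 took opposite signs. Both sets come from the same arrays, so their likeness is not independent. The control leg of animal 28 was not above background in either dye, and that of animal 30 only in AF665, so both folds rest on dim control readings.

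**Figure D3:**
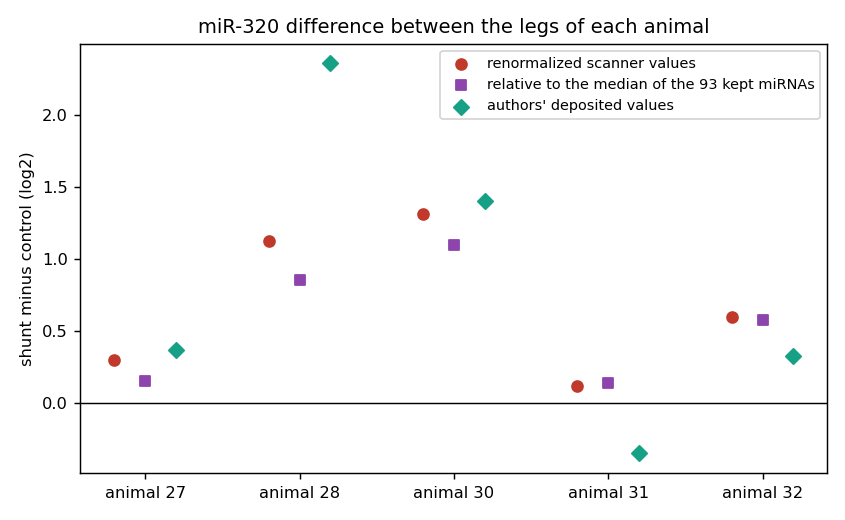
Difference of miR-320 between the legs of each animal (shunt minus control, log2) from the renormalized scanner values, from the same values relative to the median of the 93 kept miRNAs, and from the authors' deposited values. Animals 28 and 30 show the larger differences in all 3, and animal 31 lies at 0.12, 0.14 and -0.35.

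The same deposited table ranks every probe within each RNA. let-7c, one of the brightest probes, ranked from 1 to 3 in all RNAs, so low ranks were taken to belong to bright probes. The authors' rank of miR-320 was 60, 36, 39, 33.5 and 38 in shunt 1 to 5, and 56, 87, 120, 51 and 95 in control 1 to 5. The groups overlapped in rank, though only in part by the same RNAs as in level. Shunt 1 ranked behind control 1 and control 4, and the other 4 shunt RNAs ranked ahead of every control. Within control RNAs the place of miR-320 ran from 51 to 120, and within shunt RNAs from 33.5 to 60.

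The pair of readings of each RNA came from different arrays and different dyes, and for miR-320 they lay close together. The AF665 reading minus the AF546 reading was 0.24, 0.14, 0.031, -0.066 and -0.42 in shunt 1 to 5, and 0.051, 0.012, 0.066, -0.048 and -0.090 in control 1 to 5. Across the 10 RNAs the readings correlated with r = 0.94 (Spearman's rho 0.94), or r = 0.86 over the 8 RNAs without control 2 and control 3, the RNAs farthest from the median. The r ranked 4 of 93, against a median of 0.54 over the kept miRNAs. It was 0.99 within the 5 control RNAs and 0.49 within the 5 shunt RNAs. Neighbouring RNAs shared an array, so these points were not independent, and the values are a description.

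Around the closed loop of arrays the RNAs cancel, so the mean log2 ratio of AF665 to AF546 measures the dye difference of this probe that loess left. That mean was -0.0085 ± 0.52 (SD, 10 arrays, above 0 on 6). Loess itself draws such ratios towards 0, and without it the mean was -0.25. The SD of 0.52 still holds the differences between the RNAs of an array. An exact two-sided test by sign change (p = 0.961, smallest possible p = 0.00195) therefore had little power and nothing is read from it. Taken within RNAs, the mean after loess had an SD of 0.18 (n = 10). The group difference was 0.68 from the AF665 readings alone and 0.70 from the AF546 readings alone. The 3 spots of a reading had a median SD of 0.077 log2, from 0.028 to 0.35.

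The 2 arrays that held both groups gave the lowest shunt readings. They were 7.04 for shunt 1, hybridised with control 5, and 7.07 for shunt 5, hybridised with control 1, below all 8 shunt readings from arrays with shunt RNA only, which ran from 7.28 to 7.71. Those 2 readings also had fewer rat miRNAs above background, 54 for shunt 1 and 30 for shunt 5, against 78 to 127 in the 8. The part of this in the low miR-320 readings was not tested. The control readings on those 2 arrays, 6.65 and 6.83, lay inside the range of 6.25 to 7.50 of the 8 readings from control arrays. Compared directly, miR-320 was higher in the shunt RNA by 0.39 on the first array and by 0.24 on the second, where the shunt RNA carried the opposite dye. The mean of 0.32 was less than the 0.69 over all arrays and ranked 12 of 93. Without the loess correction for dye the second array read -0.89, beside a median of -0.87 over the kept miRNAs, and the first 0.62, with a mean of -0.13, beside a median of -0.28 for the same mean over the kept miRNAs. On the arrays that held 1 group each, array and group cannot be told apart.

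The level of miR-320 also followed how many miRNAs an RNA showed above background. As means of both readings, 72.5, 102, 92, 99 and 78.5 rat miRNAs were above background in shunt 1 to 5, and 71, 36.5, 63, 84.5 and 47.5 in control 1 to 5. Over the 10 RNAs miR-320 correlated with this number with r = 0.88 (Spearman's rho 0.96), r = 0.95 without control 2 and control 3. The r within shunt RNAs was 0.98 and within control RNAs 0.69. Of the 93 miRNAs 3, including miR-320, had an r at least as high, against a median of 0.38. Its correlation with the median level of the kept miRNAs was r = 0.87 (rho 0.87), r = 0.71 without control 2 and control 3. That r was 0.39 within shunt RNAs and 0.92 within control RNAs. These are descriptions of RNAs that share arrays, and the part of overall signal in the difference was not tested.

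Set against the median of the kept miRNAs in the same RNA, miR-320 stood higher by 0.52, 0.91, 0.95, 1.02 and 0.73 in shunt 1 to 5, and by 0.37, 0.061, -0.15, 0.88 and 0.15 in control 1 to 5. The group means were 0.83 ± 0.20 for shunt and 0.26 ± 0.39 for control RNAs (SD, n = 5 each), a difference of 0.57 with the shunt leg higher in 5 of 5 animals. Control 4 again lay among the shunt RNAs, above shunt 1 and shunt 5.

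Other miRNAs followed the same profile. Of the 92 other kept miRNAs 69 correlated with miR-320 above 0 over the 10 RNAs, with a median r of 0.49, and 20 reached 0.8. The 5 highest were let-7d (r = 0.96, rho 0.88), miR-28 (r = 0.94, rho 0.93), miR-146 (r = 0.94, rho 0.87), miR-20a* (r = 0.93, rho 0.90) and miR-194 (r = 0.92, rho 0.94). let-7d belongs to a family linked to cell differentiation, and miR-146 is induced in inflammation and damps it. miR-20a* is named as the minor arm of a hairpin of the proliferation-linked miR-17-92 cluster. Here its probe read higher than that of the other arm, miR-20a (7.01 against 6.36 in shunt and 6.61 against 6.16 in control RNAs). All 5 were read on the same 10 arrays as miR-320, which the correlations share. Their mature sequences from RefSeq (GRCr8) are given 5′ to 3′ to show whether they share a seed, bases 2 to 8, the stretch that pairs with target messenger RNAs, which stands in capitals. The array's older names were read as the arms given here.
let-7d-5p: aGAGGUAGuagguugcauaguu
miR-28-5p: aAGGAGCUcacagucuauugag
miR-146a-5p: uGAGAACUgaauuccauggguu
miR-20a-3p (miR-20a*): aCUGCAUUacgagcacuuaca
miR-194-5p: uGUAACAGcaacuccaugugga
The 5 sequences hold 5 distinct seeds.

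let-7d read 8.91, 9.09, 9.37, 9.22 and 9.04 in shunt 1 to 5, and 8.69, 8.07, 8.16, 9.36 and 8.35 in control 1 to 5. Like miR-320 it was high in control 4 and low in control 2 and control 3. miR-28 differed by 0.30 (SE 0.080) but exceeded background in 8 of 10 shunt channels and 1 of 10 control channels. miR-146 differed by 0.47 (SE 0.18), miR-20a* by 0.40 (SE 0.24) and miR-194 by 0.31 (SE 0.14), and none of the 5 passed limma's test (adjusted p = 0.0754 to 0.294). The 5 were picked for likeness to miR-320 over both groups, and miR-320 was chosen for its group difference. Their differences are thus partly set by that choice, and nothing is read from the test.

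**Figure D4:**
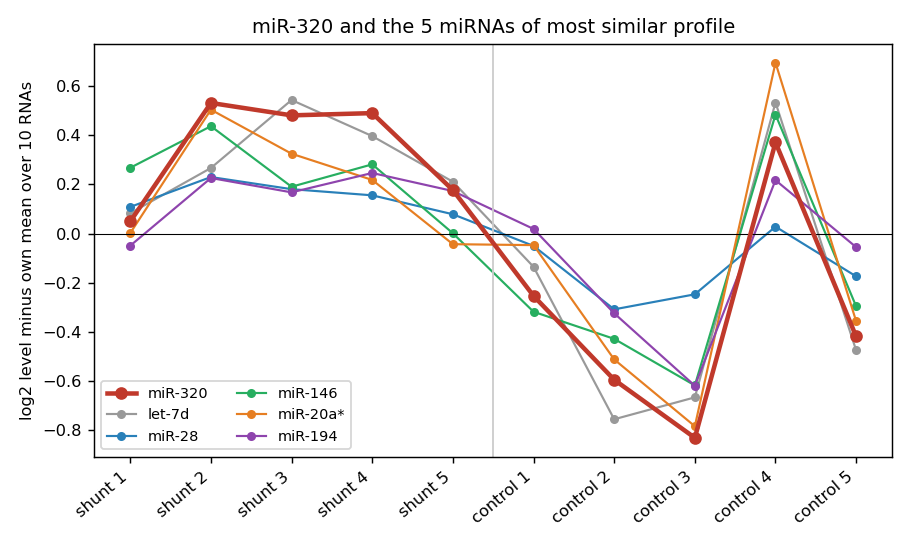
log2 level minus its own mean over the 10 RNAs for miR-320 (thick red line) and the 5 kept miRNAs that correlate with it most (r from 0.92 to 0.96), for shunt 1 to 5 and then control 1 to 5; lines only join the points of 1 miRNA. Among the controls, all 6 are highest in control 4 and lowest in control 2 and control 3.

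With each RNA taken as its deviation from the mean of its own group, so that the group difference no longer counts, the 5 closest were miR-20a* (r = 0.98, rho 0.92), miR-151 (r = 0.96, rho 0.88), let-7d (r = 0.93, rho 0.84), miR-352 (r = 0.91, rho 0.90) and miR-26b (r = 0.91, rho 0.84), again over 10 RNAs. Both sets share let-7d and miR-20a*. The group differences of miR-352 (0.21, SE 0.18) and miR-26b (0.12, SE 0.20) were the smallest of the 5, beside 0.60 for let-7d, 0.40 for miR-20a* and 0.38 (SE 0.24) for miR-151. The median within-group r over all 92 was 0.38.

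Other miRNAs with a related role are given by list, beside the 93 kept miRNAs, of which 67 read higher, 26 lower and 1.08% were called as higher. Of the other members of a list of miRNAs known from cardiac and vascular ischaemia, 7 of which were kept, 5 read higher and 2 lower, with a median of 0.087 (0.12 over the 93 kept miRNAs), and limma called 1 as higher (miR-21, adjusted p = 0.0324) and 0 as lower. miR-21, which promotes smooth muscle growth after injury, exceeded background in 8 shunt channels and in 0 control channels, so that its control level is only a bound. That call was lost when any 1 of 7 RNAs was left out, or with the animal as a block. miR-24, which restrains endothelial growth after infarction in mice, differed by 0.020 (SE 0.15). Of 14 kept regulators of angiogenesis, a list that also holds miR-21, 10 read higher and 4 lower, with a median of 0.043, and limma called that 1 as higher and 0 as lower. let-7f of that list differed by 0.44 (SE 0.18) and miR-23b by 0.035 (SE 0.12). Of the list of miRNAs made without Drosha, only miR-320 itself was on the array.

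Markers of other cell types that the tissue could hold were set beside miR-320. For striated muscle 4 of 5 markers were kept and 4 read higher, with a mean log2 level of 6.71 to 7.38 in shunt and 6.41 to 6.93 in control RNAs. That mean correlated with miR-320 with r = 0.70. miR-1, which drives muscle differentiation, differed by 0.58 (SE 0.28), exceeded background in 10 shunt and 4 control channels, and correlated with miR-320 with r = 0.87. miR-206, the brightest of the list and typical of skeletal muscle, differed by 0.23 (SE 0.22, r = 0.21), and the heart marker miR-208 exceeded background in 0 channels of either group. For leukocytes 2 of the 5 markers on the array were kept, miR-146 and miR-150, with a mean of 6.78 to 7.07 in shunt and 6.36 to 7.01 in control RNAs and r = 0.88. Of these miR-150, found in lymphocytes, had a difference of -0.0040 (SE 0.12) and r = 0.060 with miR-320. Among the markers not kept, miR-142-5p, found in all white cells, exceeded background in 0 channels, miR-142-3p in 2 shunt and 1 control channels, and the myeloid miR-223 in 1 channel of each group.

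The smooth muscle markers read in opposite directions: miR-143 differed by 0.046 (SE 0.26, r = 0.57 with miR-320) and miR-145 by -0.26 (SE 0.11, r = -0.42), and neither was called. The mean of miR-143 and miR-145 ran from 7.43 to 8.08 in shunt and from 7.36 to 8.12 in control RNAs (r = 0.31 with miR-320), and miR-126 from 7.42 to 7.86 in shunt and from 7.41 to 8.0 in control RNAs (r = 0.11). Among nerve markers 2 of 7 were kept and both read lower (mean of 6.18 to 6.48 in shunt and 6.29 to 6.58 in control RNAs, r = -0.77), and of 6 epithelial and liver markers 4 were kept, 3 reading higher and 1 lower (6.24 to 6.56 in shunt and 6.21 to 6.47 in control RNAs, r = -0.030). Of 3 red cell markers on the array only miR-16, which many cells express, was kept (7.23 to 7.57 in shunt and 7.13 to 7.56 in control RNAs). The liver miR-122a exceeded background in 10 shunt and 10 control channels and differed by -0.23 (SE 0.18, r = -0.73 with miR-320). The epithelial miR-203 exceeded it in 8 shunt and 3 control channels and differed by 0.20 (SE 0.090, r = 0.51). The epithelial miR-200a and miR-200b exceeded background in 5 and 6 shunt channels and in 0 control channels. Of the 16 kept members of these cell type lists limma called 0 (1.08% of all kept miRNAs as higher and 0% as lower), while 5 had an unadjusted p under 0.05 (19.4% of all kept miRNAs). Among those 5 were miR-200a and miR-200b, which the filter kept through shunt channels only. Another was miR-146, also picked for its likeness to miR-320, so nothing is read from that count. The part of other cell types in the miR-320 difference was not tested.

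The size of the difference depended on processing. It was above 0 under 41 of 42 alternatives, the exception being the 2 arrays with both groups taken without loess (-0.13). These alternatives share the data in which miR-320 was chosen for reading higher, and many leave out only 1 RNA, spot or array. That count is therefore a description only. With an offset of 0 in the background correction the difference was 1.07. The offset of 50 used here adds a floor of 5.64 log2 that compresses dim probes. On the 2 arrays with both groups alone the difference was 0.32. From the ratios within arrays only, with no comparison of levels between arrays, it was 0.45. Leaving out 1 RNA gave 0.57 (without control 3) to 0.87 (without control 4). Without control 2 and control 3, both partly or wholly not above background, it was 0.45 (SE 0.19), which is over 1.5 times less than 0.69.

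**Figure D5:**
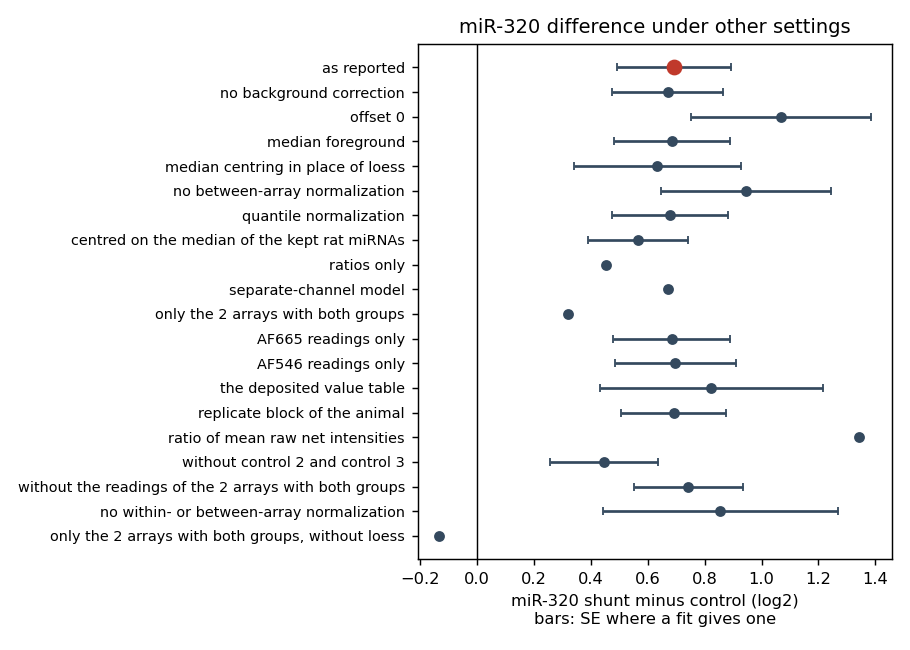
Difference of miR-320 (shunt minus control, log2) as reported (red) and under the other settings, with bars for the SE where a fit gives one. The points run from -0.13 on the 2 arrays with both groups without loess, the only one left of 0, to 1.34 for the ratio of mean raw net intensities.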

How the data were processed

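The deposited scanner files hold unnormalized foreground and local background intensity of each spot and channel, per the file headers. AF665 was taken as the long-wavelength channel. The deposited value table holds centred log2 values. A second deposited table holds the authors' ranks (a score), signed folds and p-values; how these were made is not stated. Spots were corrected with normexp (offset 50), normalized by loess (span 0.3, 4 iterations) and Aquantile, and averaged over 3 spots, then both readings, on the log2 scale. limma 3.58.1 (R 4.3.3) gave differences by lmFit and eBayes without the animal as a block, with Benjamini-Hochberg adjustment over 93 miRNAs; RNAs sharing an array were taken as independent, so its p-values may be too small. The scripts were tested on simulated data. The number of arrays limits precision.

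miR-320, the lists and the settings were chosen with earlier results of these data known. Besides miR-320 the text names the 5 miRNAs of most similar profile (over all RNAs, and within groups), those next to it by difference, and list members that limma called or the brightest kept. Some other list members and miR-20a are named for their detection or level. Paired legs came from 1 animal, per the labels. Between paired RNAs, deviations from the group mean correlated by -0.42, 0.0052, -0.19, -0.047 and 0.34 in animals 27, 28, 30, 31 and 32.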

Additional observations from a re-analysis of the deposited data

Results flagged for a closer look

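Of 60 sets of 5 values (a miRNA or reading in 1 leg) checked for a value set apart, 2 held one, where chance gives about 5%. In AF546, miR-320 read 7.04 in shunt 1, while the other 4 shunt RNAs averaged 7.57 ± 0.055 (SD), and the step to the nearest of them was 0.775 of the whole spread; that reading shared its array with control 5. miR-194 was at 6.67 in shunt 1, while the other 4 shunt RNAs averaged 6.92 ± 0.039 (SD), a step of 0.734 of the whole spread.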

How the results depend on the processing

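The miR-320 difference of 0.69 kept its sign but moved by more than the replicate SD under 3 of 42 alternatives. It changed sign under 1, the 2 arrays with both groups without loess (-0.13, chosen after seeing the data). The 3 were 1.07 with an offset of 0, 0.32 on the 2 arrays with both groups only, and 1.34 as the ratio of mean raw net intensities. A replicate block of the animal could not move it, since each rat gave 1 RNA to each group, and only the SE changed (0.19). The difference ran from 0.57 to 0.87 with 1 RNA left out, from 0.63 to 0.76 with 1 spot left out and from 0.65 to 0.73 with 1 array left out. It was 0.45 with ratios only and 0.45 without control 2 and control 3; that removal, the removal of the readings of the 2 arrays with both groups (0.74) and the omission of all normalization (0.85) were chosen after seeing the data.

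The 1 miRNA that limma called became 0 under the stricter filter on dim probes, the replicate block of the animal, no between-array normalization and the deposited value table, 2 with an offset of 0, 3 with no filter and 4 with centring on the kept miRNAs, and ran from 0 to 25 with 1 RNA left out, the 25 coming without control 4. The dye difference of -0.0085 ran from -0.089 to 0.12 with 1 array left out. It turned above 0 without the array of control 3 with control 4 (0.12), control 5 with shunt 1 (0.034) or shunt 1 with shunt 2 (0.023). The exact permutation p ran from 0.309 to 0.973, in a test with little power. Without normalization within arrays the dye difference was -0.25 (exact permutation p = 0.393). Of the 5 miRNAs most like miR-320, 2 stayed among the top 5 without between-array normalization, 4 with centring on the kept miRNAs and 3 with the deposited value table; within groups these counts were 3, 5 and 2. The cause of these changes was not tested.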
